A study of Mus musculus with 8 samples.

Results

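The genes described here encode G protein-coupled receptors (GPCRs) for lipid mediators, nucleotides and hormones. There were 57 of them among the 27179 genes of the count table, in 11 classes by ligand, and 56 of them were among the 14382 genes with enough counts to be tested. The remaining one, Ptgdr, is given by its counts. The list was drawn up with earlier results of the same tumours known, so its members were partly chosen by measured values of the comparison below, and their counts and medians are given as a description.

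Expression was measured by RNA sequencing in 8 whole primary tumours. All grew from 4T1.13 cells, a metastatic mouse mammary carcinoma line, after 100000 cells were placed in the mammary fat pad of female BALB/c mice at 7 to 8 weeks of age. Tumours were taken on day 14 according to the sample labels. The study's text gives an earlier day and states that tumours of the knockdown line were then starting to regress. In the 4 miR-21-KD tumours the cells carried the miArrest lentiviral vector, whose H1 promoter drives an RNA that binds and sequesters mature miR-21, and in the 4 vector control (VC) tumours the vector carried a scrambled sequence. Both lines carried the mCherry and hygromycin resistance genes of the vector, and each was a pool of individually expanded clones, so clone differences between the lines cannot be told apart from the knockdown. The mice were immunocompetent, and only the tumour cells carried the vector. Each library held 12134849 to 13592695 counts on genes, and values are given as CPM, which are counts scaled by the library size and TMM factor, in the order of tumours 1 to 4. SE stands for standard error, and "called" means past the threshold. A count of 0 allowed at most 3 counts, which was 0.221 to 0.244 CPM for counting error only. Nothing beyond the replicate numbers describes how the tumours of a group differ. The p-values set the difference between groups against the spread between tumours, and they do not cover differences between independently made lines.

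GPCRs cross the cell membrane several times and pass a signal from outside the cell to heterotrimeric G proteins inside it. Receptors that couple to Gs raise cyclic AMP, those that couple to Gi lower it, those that couple to Gq release calcium, and those that couple to G12 and G13 act on the actin cytoskeleton. In tumours, prostaglandins, leukotrienes, sphingosine-1-phosphate, lysophosphatidic acid, ATP, UDP and adenosine are made by tumour cells, leukocytes, platelets and stroma, and their receptors are known on macrophages, lymphocytes, granulocytes, fibroblasts, vessel cells and carcinoma cells. Prostaglandin E2 and adenosine acting on Gs-coupled receptors are textbook restraints of T cells and macrophages.

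The sequence that the knockdown vector sequesters is mature mouse miR-21a-5p (GRCm38.p6, chr11:86584120-86584141, minus strand, sequence from RefSeq). Its seed, bases 2 to 8, is in capitals.
miR-21a-5p: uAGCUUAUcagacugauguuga
A 7-base match to this seed was searched, as ATAAGCT on the sense strand, in 1 annotated 3′ UTR per gene. It was found in 1 of the 56 members with an annotated 3′ UTR, and the 8-base site with a further A was found in 0 of them. Among all tested genes with a 3′ UTR, 1030 of 13336 (7.72%) held the 7-base match and 304 (2.28%) the 8-base site. The median UTR length was 1446 bases for the members and 1164 bases for the tested genes. The single match lay at positions 18 to 24 of the 3′ UTR of Ptgdr, the prostaglandin D2 receptor gene, and the match is in capitals.
Ptgdr 3′ UTR site: ctttgcgtgttctgATAAGCTgaaaatac
No other member held these letters in the window searched. A match or its absence is a description of the sequence.

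Several of the receptors are known from myeloid cells, in which the transcription factor PU.1 is a main regulator, so promoters were searched for its core, GAGGAAG, on either strand, from 250 bases before to 50 bases after a RefSeq start site (GRCm38.p6). The core was in a window of 15 of the 48 members with a promoter in the table (31.2%), in 1821 of 11032 tested genes (16.5%) and in 15.4% of the 27025 genes of the promoter table. Among the members called higher in miR-21-KD tumours it was in 6 of 25 (24.0%). These 6 are shown as 27-base stretches in the direction of the gene, with the core or its reverse complement in capitals and, where a gene held 2 matches, the one nearest to the start site.
P2ry14 promoter (chr3:59153497-59153523, minus strand): tcttgaagatGAGGAAGaactcggctt
Ptgfr promoter (chr3:151837523-151837549, minus strand): ggagagagacGAGGAAGgggcggaggt
Ptgir promoter (chr7:16906280-16906306, plus strand): tggactgtatGAGGAAGaggcaggagg
Adora3 promoter (chr3:105904382-105904408, plus strand): ggttcctgtaCTTCCTCttggactatc
Ltb4r1 promoter (chr14:55765953-55765979, plus strand): ctctgtggtaCTTCCTCtctggctgac
P2ry10 promoter (chrX:107089293-107089319, plus strand): atgtgctctaCTTCCTCtttcaacatt
In 4 of them, P2ry14, Ptgfr, Adora3 and P2ry10, the core began 11 to 30 bases upstream of the start site. In Ltb4r1 it began 1 base downstream of it and in Ptgir 200 bases upstream. Binding of the factor was not measured.

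Most receptors of the list were higher in miR-21-KD tumours. Of the 56 tested, 32 were higher in miR-21-KD than in VC tumours, 4 were lower and 20 did not pass the threshold, an adjusted p under 0.05 over all tested genes. Over all 14382 tested genes 19.6% were higher and 19.5% lower, and since the list was chosen with these results known, nothing is read from the difference. This holds for the counts of single ligand classes below as well. The log2 fold change was positive for 47 of the 56, with a median of 0.89, against a median of -0.01 over all tested genes, and 22 of the members called higher had an estimate above 2-fold. These calls were tested against no change, and a test for changes above 1.5-fold left 5 members higher and 0 lower, beside 2.32% of all genes higher. In 25 members every miR-21-KD tumour lay above every VC tumour, which 16.4% of all tested genes did. In 2 members, Lpar2 and F2rl3, every miR-21-KD tumour lay below every VC tumour, as 18.8% of all tested genes did.

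The count was sensitive to single tumours, as was that over all genes. Without VC 3 it was 18 members higher and 1 lower, with 9.90% of all genes higher, and without miR-21-KD 4 it was 18 and 1, with 12.1% of all genes higher. Without VC 2 the counts were 20 and 1, with 11.6% of all genes higher, without miR-21-KD 1 they were 20 and 3, with 12.9%, and without miR-21-KD 3 they were 23 and 1, with 13.6%.

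**Figure D1:**
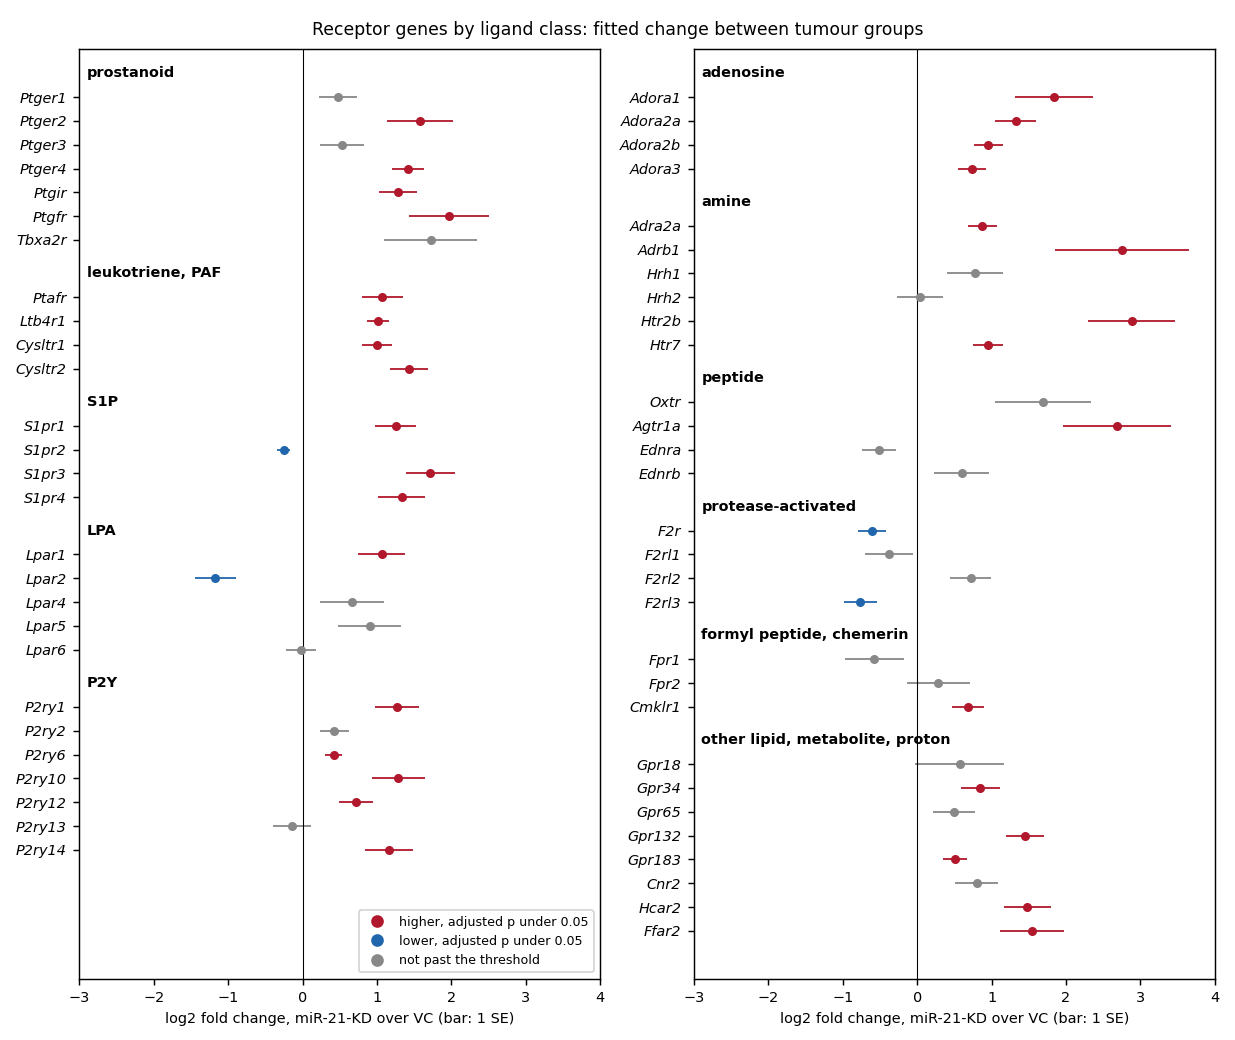
Log2 fold change of miR-21-KD over VC tumours for the 56 tested receptors, grouped by ligand class, with bars of 1 standard error (4 tumours per group). Red points, 32 in all, were higher and the 4 blue points, S1pr2, Lpar2, F2r and F2rl3, were lower at an adjusted p under 0.05.

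Within a group, tumours that were high for one receptor tended to be high for others. Among the VC tumours VC 1 held the highest value of 25 members and VC 4 of 24, while VC 2 held the lowest value of 28. Among the miR-21-KD tumours miR-21-KD 1 held the highest value of 33 members and miR-21-KD 2 the lowest of 39. The median over members of log2 CPM was 2.93 to 3.77 in the VC and 3.74 to 4.39 in the miR-21-KD tumours. By this median miR-21-KD 2 lay within the range of the VC tumours.

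**Figure D2:**
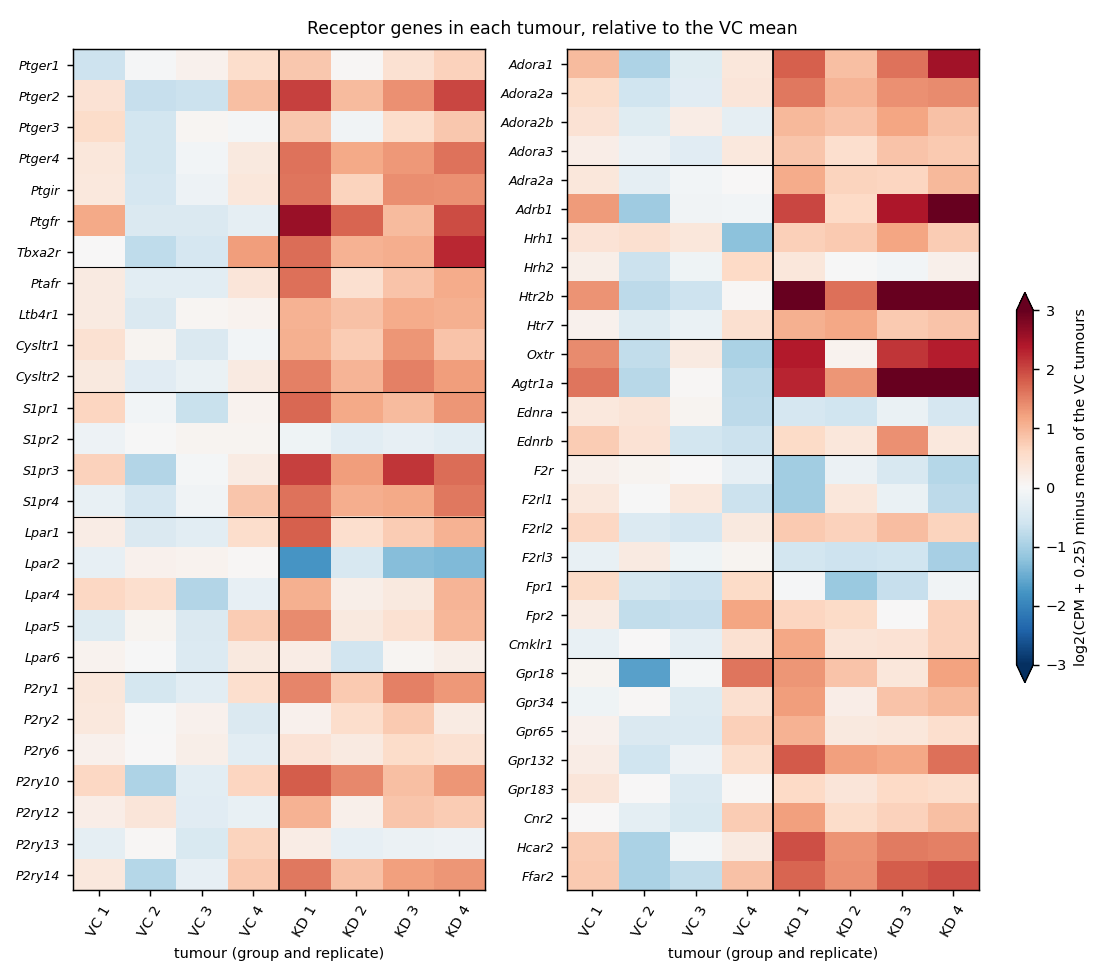
Log2 CPM of each tested receptor in each of the 8 tumours, as the difference from the mean of the VC tumours (red above, blue below, colours end at a difference of 3). Columns are tumours, rows are receptors in order of ligand class with lines between classes, and the palest of the miR-21-KD columns is that of miR-21-KD 2.

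These were whole tumours, so a change in the number of cells of a type and a change in RNA per cell cannot be told apart. Markers of several cell types that are known to carry these receptors were often called higher, beside 19.6% of all tested genes. Of 10 macrophage and monocyte markers 8 were higher in miR-21-KD tumours, and their summed level was 2801 to 4043 CPM in VC and 5548 to 8653 CPM in miR-21-KD tumours. T cell markers were higher for 6 of 8, with overlapping sums of 40.0 to 149 CPM in VC and 133 to 272 CPM in miR-21-KD tumours. Dendritic cell markers were higher for 4 of 8. Fibroblast markers were higher for 7 of 8, with sums of 3044 to 8121 CPM in VC and 10536 to 23574 CPM in miR-21-KD tumours, pericyte and smooth muscle markers for 6 of 8 with 1 lower, and adipocyte markers for 6 of 6, with sums of 104 to 413 CPM in VC and 536 to 1409 CPM in miR-21-KD tumours. Eosinophil markers were higher for 3 of the 4 tested and platelet markers for 2 of 6, with 2 not tested. Mast cell and endothelial markers were higher for 2 of 8 each and neutrophil markers for 1 of 8, Ltf. Mast cell, endothelial and neutrophil markers thus stayed near the share of all genes, and their sums overlapped between the groups. Of 6 B cell markers 4 were tested and did not pass the threshold. Their sum stood apart in both tumours with the number 4, at 153 CPM in VC 4 against 1.99 to 5.38 CPM in the other VC tumours and at 67.7 CPM in miR-21-KD 4 against 9.0 to 14.5 CPM in the other miR-21-KD tumours. Epithelial markers were higher for 6 of 8, including Krt19, and lower for 1, Krt18, and their summed level overlapped between the groups, at 1289 to 2225 CPM in VC and 1046 to 1962 CPM in miR-21-KD tumours. None of the markers was at 0 in all tumours. The part of these cell types in the values of the receptors was not tested.

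Among the prostanoid receptors, 2 of the 4 for prostaglandin E2 and those for prostacyclin and prostaglandin F2α were higher in miR-21-KD tumours. Ptger4 (Entrez 19219, chr15:5233399-5244187), whose product EP4 couples to Gs, had 16.8, 9.01, 12.4 and 16.2 CPM in the VC and 41.5, 29.5, 32.7 and 41.3 CPM in the miR-21-KD tumours. The lowest miR-21-KD value was well above the highest VC value (log2 fold change 1.41 ± 0.21 SE, adjusted p = 0.00571). Ptger2, the gene of EP2, the other Gs-coupled prostaglandin E2 receptor, had 3.39, 1.43, 1.5 and 4.8 CPM in the VC and 11.1, 5.03, 6.73 and 10.5 CPM in the miR-21-KD tumours. The groups did not overlap, although miR-21-KD 2 lay close to VC 4 (log2 fold change 1.58 ± 0.44 SE, adjusted p = 0.024). Ptgir, which encodes the prostacyclin receptor, had 10.4, 5.74, 7.48 and 10.6 CPM in the VC and 25.7, 13.4, 22 and 21.9 CPM in the miR-21-KD tumours. Here too the groups were apart, with miR-21-KD 2 the lowest of its group (log2 fold change 1.28 ± 0.26 SE, adjusted p = 0.0093). Ptgfr, which encodes the Gq-coupled prostaglandin F2α receptor, had 2.14, 0.558, 0.551 and 0.652 CPM in the VC and 6.29, 3.38, 1.86 and 3.99 CPM in the miR-21-KD tumours. It was higher in miR-21-KD tumours with an overlap, since VC 1 lay above miR-21-KD 3 (log2 fold change 1.97 ± 0.54 SE, adjusted p = 0.0224). Its counts were 29, 7, 7 and 8 in VC tumours 1 to 4, so the fold change of Ptgfr rests on few reads.

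Ptgdr, the Gs-coupled prostaglandin D2 receptor gene whose 3′ UTR holds the seed match, had 1, 0, 1 and 1 counts in VC tumours 1 to 4 and 5, 4, 7 and 3 counts in miR-21-KD tumours 1 to 4. All VC tumours were at or below the limit of 3 counts and too few counts were present for a test, so no fold is given. The remaining prostanoid receptors did not pass the threshold. Ptger1, the Gq-coupled EP1 gene, is not described further, since its counts are uncertain where reads were counted without strand. Ptger3, the Gi-coupled EP3 gene, had 2.95 to 6.56 CPM in VC and 4.08 to 7.99 CPM in miR-21-KD tumours (log2 fold change 0.53, adjusted p = 0.183). Tbxa2r, the thromboxane A2 receptor gene, had 0.159 to 1.38 CPM in VC and 1.18 to 3.05 CPM in miR-21-KD tumours (log2 fold change 1.72, adjusted p = 0.0561). Its counts were 6, 2, 3 and 17 in VC tumours 1 to 4, so VC 2 and VC 3 were at or below the limit of 3 counts and its fold change rests on few reads. With a block for the replicate number, Ptger3 (adjusted p = 0.0493) and Tbxa2r (adjusted p = 0.00938) passed. Tbxa2r also passed with DESeq2 (adjusted p = 0.0327) or limma-voom (adjusted p = 0.0285) and without VC 4 (adjusted p = 0.0118) or miR-21-KD 2 (adjusted p = 0.0494). Ptger2 did not pass the threshold without VC 2, VC 3, miR-21-KD 1 or miR-21-KD 4 (adjusted p between 0.0592 and 0.0654). Ptgfr did not pass without VC 2, VC 3, miR-21-KD 1 or miR-21-KD 4 (adjusted p between 0.0536 and 0.0652).

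Of the genes that supply prostaglandin E2, the inducible synthase was lower. Ptges had 210.5, 234, 231 and 166 CPM in the VC and 80.2, 94.6, 102 and 78.5 CPM in the miR-21-KD tumours. It had the smallest p of all 104 tested genes that make, carry or break down ligands, and every miR-21-KD tumour lay below every VC tumour (log2 fold change -1.24 ± 0.14 SE, adjusted p = 0.00501). Slco2a1, the prostaglandin uptake transporter, was lower as well (log2 fold change -1.48, adjusted p = 0.0139), and Hpgd, which inactivates prostaglandins, was higher (log2 fold change 1.64, adjusted p = 0.0358). For the cyclooxygenases, Ptgs1 had a log2 fold change of -0.32 (adjusted p = 0.362) and Ptgs2 of 0.60 (adjusted p = 0.214), neither past the threshold. Of the synthases of other prostanoids, Ptgis for prostacyclin (log2 fold change 2.33, adjusted p = 0.00759) and Tbxas1 for thromboxane (log2 fold change 1.26, adjusted p = 0.00836) were higher. Hpgds for prostaglandin D2 (log2 fold change -0.24, adjusted p = 0.446) and Akr1b3 for prostaglandin F2α (log2 fold change 0.37, adjusted p = 0.0928) did not pass, and Ptgds, the other prostaglandin D2 synthase gene, was not tested.

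All 4 receptors of leukotrienes and platelet-activating factor were higher in miR-21-KD tumours, beside 19.6% of all tested genes. In each of them every miR-21-KD tumour lay above every VC tumour, beside 16.4% of all tested genes. Ltb4r1 (Entrez 16995, chr14:55765962-55768494), which encodes the leukotriene B4 receptor BLT1 of granulocytes, macrophages and effector T cells, had 24.7, 15, 21.1 and 22 CPM in the VC and 42, 37.9, 44.6 and 43.1 CPM in the miR-21-KD tumours. The miR-21-KD tumours lay close together and all well above VC 1, the highest of the VC tumours (log2 fold change 1.02 ± 0.15 SE, adjusted p = 0.00571). Cysltr2 (Entrez 70086, chr14:73029128-73049114), a receptor of cysteinyl leukotrienes, had 1.99, 1.2, 1.34 and 1.95 CPM in the VC and 5.0, 3.46, 4.94 and 4.14 CPM in the miR-21-KD tumours. It had the largest difference of the class and, per kilobase of exon, the lowest level (log2 fold change 1.43 ± 0.25 SE, adjusted p = 0.0068). Cysltr1, the other cysteinyl leukotriene receptor, had 28.4, 21.7, 15.1 and 19.4 CPM in the VC and 43.3, 35.3, 52.4 and 37.7 CPM in the miR-21-KD tumours. The groups were well apart (log2 fold change 0.99 ± 0.20 SE, adjusted p = 0.00975). Ptafr, the receptor of platelet-activating factor on phagocytes and platelets, had 16.4, 10.8, 10.7 and 17.3 CPM in the VC and 43.2, 18.8, 24.6 and 29.6 CPM in the miR-21-KD tumours. The gap between the groups was narrow, from VC 4 to miR-21-KD 2 (log2 fold change 1.07 ± 0.28 SE, adjusted p = 0.0188). Ptafr did not pass without VC 2 or VC 3 (adjusted p between 0.0539 and 0.0567).

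The enzymes of leukotriene synthesis moved in both directions. Alox5, 5-lipoxygenase (log2 fold change 1.23, adjusted p = 0.00831), and its partner Alox5ap (log2 fold change 0.82, adjusted p = 0.0123) were higher in miR-21-KD tumours. Lta4h, which makes leukotriene B4, was lower (log2 fold change -0.33, adjusted p = 0.0159), and Ltc4s, which makes leukotriene C4, had a log2 fold change of -0.12 (adjusted p = 0.783). The peptidase and transferase genes Dpep1 (log2 fold change 2.27, adjusted p = 0.0144), Ggt1 (log2 fold change 1.88, adjusted p = 0.00815) and Ggt5 (log2 fold change 1.84, adjusted p = 0.00693), which convert leukotriene C4 further, were higher. Pla2g7, the secreted hydrolase of platelet-activating factor, was higher (log2 fold change 0.93, adjusted p = 0.0151) and Pafah1b2, a catalytic subunit of an intracellular one, was lower (log2 fold change -0.30, adjusted p = 0.0286). Alox15, the 12/15-lipoxygenase of macrophages and eosinophils, was higher (log2 fold change 2.16, adjusted p = 0.0128).

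Of the sphingosine-1-phosphate (S1P) receptors 3 were higher and 1 was lower, beside 19.6% and 19.5% of all tested genes. S1pr3 (Entrez 13610, chr13:51408639-51422797), which couples to Gi, Gq and G12 or G13 and is known in fibroblasts and vessel cells, had 76, 25.4, 45.7 and 56.3 CPM in the VC and 197, 114, 208 and 151 CPM in the miR-21-KD tumours. The lowest miR-21-KD tumour exceeded the highest VC tumour (log2 fold change 1.72 ± 0.32 SE, adjusted p = 0.0080). S1pr1, the Gi-coupled receptor of lymphocyte egress and endothelial barrier, had 28.2, 17, 11.3 and 19.4 CPM in the VC and 59.9, 39.9, 35 and 45.8 CPM in the miR-21-KD tumours. The groups were apart, with VC 1 nearest to the miR-21-KD tumours (log2 fold change 1.25 ± 0.28 SE, adjusted p = 0.0119). S1pr4, a receptor of haematopoietic cells, had 3.32, 2.71, 3.62 and 7.25 CPM in the VC and 12.6, 8.72, 8.92 and 12.3 CPM in the miR-21-KD tumours. VC 4 stood above the other VC tumours but below all miR-21-KD tumours (log2 fold change 1.33 ± 0.32 SE, adjusted p = 0.0149). S1pr2, which couples to G12 and G13 and restrains migration, had 68.7 to 80.9 CPM in VC and 61.1 to 69.4 CPM in miR-21-KD tumours, and it was lower in miR-21-KD tumours with an overlap (log2 fold change -0.25 ± 0.08 SE, adjusted p = 0.0391). The difference was small and did not pass with a block for the replicate number (adjusted p = 0.0629), upper-quartile scaling (adjusted p = 0.0764) or a filter of 10 counts or more in all tumours (adjusted p = 0.0854). It was also lost without VC 2, VC 3, VC 4, miR-21-KD 2, miR-21-KD 3 or miR-21-KD 4 (adjusted p between 0.0555 and 0.103). Per kilobase of exon, S1pr2 was the highest of the 4 in VC tumours at 12 CPM per kb in VC and 10.0 CPM per kb in miR-21-KD tumours, close to S1pr3 with 11.4 CPM per kb in VC and 37.5 CPM per kb in miR-21-KD tumours. S1pr1 had 6.22 CPM per kb in VC and 14.8 CPM per kb in miR-21-KD tumours, and S1pr4 had 1.77 CPM per kb in VC and 4.45 CPM per kb in miR-21-KD tumours. In miR-21-KD tumours S1pr3 and S1pr1 thus stood above S1pr2.

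Among the genes of S1P supply, the exporter Spns2 was lower in miR-21-KD tumours (log2 fold change -1.09, adjusted p = 0.025). The kinases Sphk1 (log2 fold change 0.56, adjusted p = 0.0311) and Sphk2 (log2 fold change 0.56, adjusted p = 0.0245), which make S1P, and the lyase Sgpl1 (log2 fold change 0.52, adjusted p = 0.010), which breaks it down, were higher.

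The lysophosphatidic acid (LPA) receptors did not move together. Lpar2 (Entrez 53978, chr8:69822429-69831102), an LPA receptor known from carcinoma cells, had 10.2, 13.3, 13.2 and 12.5 CPM in the VC and 3.39, 8.72, 4.94 and 4.77 CPM in the miR-21-KD tumours. It was lower in every miR-21-KD tumour, least so in miR-21-KD 2, with the largest fall of all members (log2 fold change -1.17 ± 0.27 SE, adjusted p = 0.0138). Lpar1, the LPA receptor of fibroblasts and many adherent cells, had 20.8, 13, 14.1 and 25.7 CPM in the VC and 61.7, 25.4, 30.1 and 36.7 CPM in the miR-21-KD tumours. It was higher in miR-21-KD tumours with VC 4 slightly above miR-21-KD 2 (log2 fold change 1.06 ± 0.32 SE, adjusted p = 0.0301). It did not pass without VC 2, VC 3, miR-21-KD 1 or miR-21-KD 4 (adjusted p between 0.0636 and 0.0837). Lpar5 had 0.737, 1.12, 0.709 and 1.95 CPM in the VC and 3.23, 1.33, 1.54 and 2.34 CPM in the miR-21-KD tumours. These groups overlapped and the difference did not pass the threshold (log2 fold change 0.90 ± 0.42 SE, adjusted p = 0.114), except without VC 4 (adjusted p = 0.0375). Lpar4 had 0.551 to 1.99 CPM in VC and 1.41 to 2.82 CPM in miR-21-KD tumours (log2 fold change 0.66, adjusted p = 0.242). Lpar6, which lies within Rb1 on the opposite strand, had 22.7 to 37.3 CPM in VC and 20.3 to 35.4 CPM in miR-21-KD tumours (log2 fold change -0.02, adjusted p = 0.948). Enpp2, which encodes autotaxin, the enzyme that makes extracellular LPA, had 267, 191, 136 and 109 CPM in the VC and 397, 519, 581 and 439 CPM in the miR-21-KD tumours, with no overlap (log2 fold change 1.46, adjusted p = 0.00764). Plpp3, a phosphatase that degrades LPA, was higher as well (log2 fold change 1.40, adjusted p = 0.0166).

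Of the 7 P2Y family receptors 5 were higher in miR-21-KD tumours, beside 19.6% of all tested genes, and 2 did not pass. P2ry1, the Gq-coupled ADP receptor, had 4.79, 2.47, 2.91 and 5.38 CPM in the VC and 10.7, 6.52, 10.9 and 9.45 CPM in the miR-21-KD tumours. The groups were apart (log2 fold change 1.27 ± 0.29 SE, adjusted p = 0.0133). P2ry6 (Entrez 233571, chr7:100937630-100964391), the UDP receptor of macrophages and microglia, had 115, 107, 119 and 84.7 CPM in the VC and 139.9, 128, 154 and 146 CPM in the miR-21-KD tumours. Its change was the smallest of the members called higher, but no VC tumour reached the miR-21-KD range (log2 fold change 0.42 ± 0.12 SE, adjusted p = 0.0242). P2ry14, the Gi-coupled receptor of UDP-sugars, had 15.7, 6.94, 10.7 and 21.8 CPM in the VC and 38.7, 23.6, 29.8 and 31.8 CPM in the miR-21-KD tumours. The lowest miR-21-KD tumour, miR-21-KD 2, lay just above VC 4 (log2 fold change 1.17 ± 0.32 SE, adjusted p = 0.0237). P2ry10, a receptor of lysophosphatidylserine on lymphocytes, had 21.2, 7.09, 10.9 and 21.5 CPM in the VC and 49.2, 38, 25.9 and 35 CPM in the miR-21-KD tumours. VC 1 and VC 4 came close to miR-21-KD 3 from below (log2 fold change 1.28 ± 0.36 SE, adjusted p = 0.0237). P2ry12, the Gi-coupled ADP receptor of platelets and microglia, had 8.43 to 13.8 CPM in VC and 11.9 to 22.2 CPM in miR-21-KD tumours. It was higher with an overlap (log2 fold change 0.72 ± 0.23 SE, adjusted p = 0.0382), but not with a block for the replicate number (adjusted p = 0.061).

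One P2Y receptor that did not pass was P2ry2, the receptor of ATP and UTP, with 22.6 to 38 CPM in VC and 33.5 to 53.3 CPM in miR-21-KD tumours (log2 fold change 0.43, adjusted p = 0.108). The other was P2ry13, an ADP receptor, with 9.84 to 21.8 CPM in VC and 11.4 to 16 CPM in miR-21-KD tumours (log2 fold change -0.14, adjusted p = 0.681). P2ry12, P2ry13 and P2ry14 lie side by side on chromosome 3 within introns of Med12l on the opposite strand. P2ry6 was no longer called without VC 2, miR-21-KD 3 or miR-21-KD 4 (adjusted p between 0.0618 and 0.0665). For P2ry10 this was so without VC 3, miR-21-KD 1 or miR-21-KD 4 (adjusted p between 0.0526 and 0.0679). For P2ry12 it was so without VC 1, VC 3, VC 4, miR-21-KD 1, miR-21-KD 3 or miR-21-KD 4 (adjusted p between 0.0528 and 0.103), and for P2ry14 without VC 3, miR-21-KD 1, miR-21-KD 3 or miR-21-KD 4 (adjusted p between 0.0504 and 0.0686). The paralogue P2ry10b, with 3.68, 2.87, 3.15 and 5.21 CPM in the VC and 11.5, 5.1, 10.3 and 9.06 CPM in the miR-21-KD tumours, was higher as well (log2 fold change 1.27 ± 0.30 SE, adjusted p = 0.0137), and VC 4 slightly exceeded miR-21-KD 2. Reads shared by P2ry10 and P2ry10b would make either count uncertain.

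All 4 adenosine receptors were higher in miR-21-KD tumours, beside 19.6% of all tested genes, with uncertain counts for Adora1. Adora2a, a Gs-coupled receptor gene of lymphocytes and macrophages, had 7.37, 3.19, 3.86 and 6.35 CPM in the VC and 15.2, 10.3, 13.1 and 13.4 CPM in the miR-21-KD tumours. The groups did not overlap (log2 fold change 1.32 ± 0.28 SE, adjusted p = 0.0105). Adora2b (Entrez 11541, chr11:62248984-62266453), the gene of the low-affinity Gs-coupled receptor, had 13.6, 7.73, 11.7 and 8.31 CPM in the VC and 19.9, 18.5, 23.2 and 18.8 CPM in the miR-21-KD tumours. Each miR-21-KD value exceeded VC 1, the highest VC value (log2 fold change 0.95 ± 0.20 SE, adjusted p = 0.00983). Adora3, a Gi-coupled receptor gene of mast cells and other leukocytes, had 8.32, 6.38, 5.59 and 9.04 CPM in the VC and 13, 10.4, 13.1 and 12.6 CPM in the miR-21-KD tumours. The groups were again apart (log2 fold change 0.74 ± 0.19 SE, adjusted p = 0.0167), with 4.20% of its exonic bases shared with Tmigd3 on the same strand. Adora1, also Gi-coupled, had 0.399 to 2.14 CPM in VC and 2.04 to 6.8 CPM in miR-21-KD tumours with an overlap (log2 fold change 1.84 ± 0.53 SE, adjusted p = 0.0265), and 20.1% of its exonic bases overlap Mybph on the opposite strand, so its counts are uncertain where reads were counted without strand. Adora1 was not called without VC 2, VC 3, miR-21-KD 1, miR-21-KD 3 or miR-21-KD 4 (adjusted p between 0.0516 and 0.0762). Adora3 was not called without VC 2 (adjusted p = 0.0507).

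Genes that set the level of adenosine moved in both directions. Nt5e, which encodes CD73, the ectoenzyme that makes adenosine from AMP, had 927, 848, 913 and 510.1 CPM in the VC and 143, 334, 288 and 205 CPM in the miR-21-KD tumours, with no overlap (log2 fold change -1.72 ± 0.29 SE, adjusted p = 0.00667). Slc29a1, the adenosine uptake transporter ENT1, had 161, 281, 238 and 247 CPM in the VC and 97.3, 107, 94.9 and 99.7 CPM in the miR-21-KD tumours. The miR-21-KD tumours lay within a narrow range below all VC tumours (log2 fold change -1.22 ± 0.16 SE, adjusted p = 0.00501). Alpl, an alkaline phosphatase that also acts on nucleotides, had 7.37, 9.01, 8.03 and 11.5 CPM in the VC and 3.15, 4.32, 3.0 and 3.2 CPM in the miR-21-KD tumours. It was lower in each miR-21-KD tumour than in any VC tumour (log2 fold change -1.39 ± 0.21 SE, adjusted p = 0.00571). Adk, the kinase that clears adenosine inside cells, was lower (log2 fold change -0.50, adjusted p = 0.0102), and Entpd1, which encodes CD39 and acts on ATP and ADP upstream of CD73, was higher (log2 fold change 0.71, adjusted p = 0.0313). Entpd2, a related ectoenzyme (log2 fold change 2.47, adjusted p = 0.00664), and Panx1, an ATP release channel (log2 fold change 0.78, adjusted p = 0.0199), were higher too. Ada, adenosine deaminase, had a log2 fold change of 0.15 (adjusted p = 0.684).

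**Figure D3:**
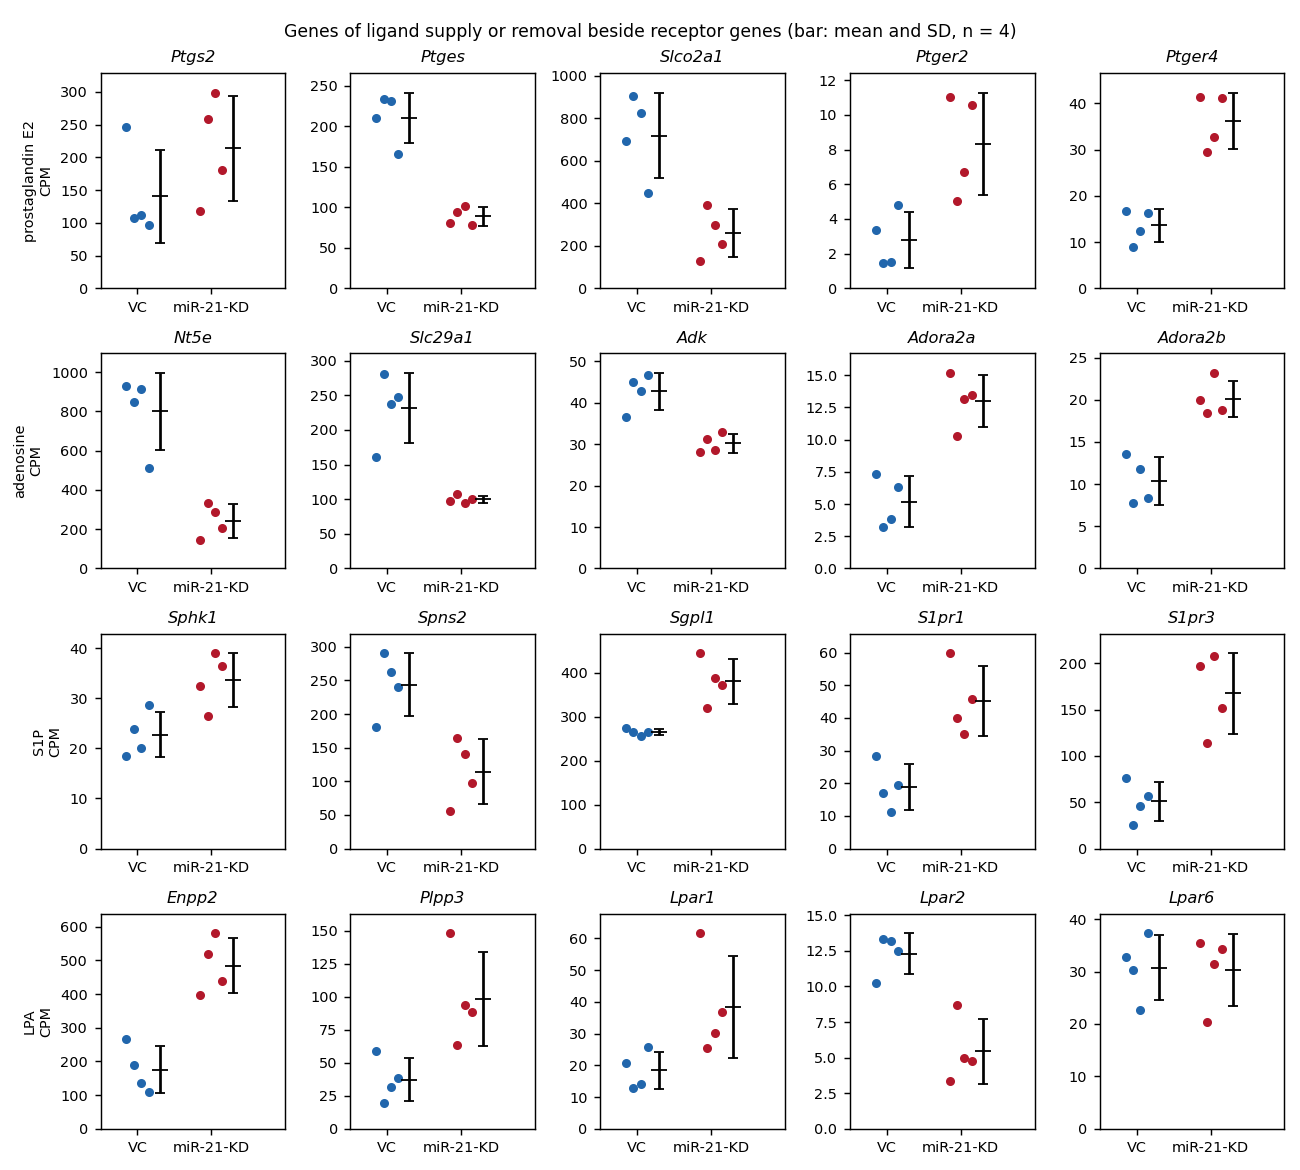
CPM of genes that supply, carry or remove a ligand beside receptor genes for prostaglandin E2, adenosine, S1P and LPA, in each of the 4 VC (blue) and 4 miR-21-KD (red) tumours, with mean and SD. The miR-21-KD points of Ptges, Slco2a1, Nt5e, Slc29a1, Adk, Spns2 and Lpar2 lie below those of VC, and those of Ptger2, Ptger4, Adora2a, Adora2b, Sgpl1, S1pr1, S1pr3, Enpp2 and Plpp3 above.

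Of the 6 receptors of biogenic amines 4 were higher, beside 19.6% of all tested genes. Htr2b (Entrez 15559, chr1:86099026-86111970), which encodes a Gq-coupled serotonin receptor known in fibroblasts and macrophages, had 5.01, 0.957, 1.1 and 1.87 CPM in the VC and 19.5, 6.28, 21.6 and 19.2 CPM in the miR-21-KD tumours. It had the largest change of all members, and even miR-21-KD 2, far below the rest of its group, exceeded VC 1 (log2 fold change 2.88 ± 0.59 SE, adjusted p = 0.00975). It lies within Psmd1 on the opposite strand and shares no exonic bases with it. Htr7, a Gs-coupled serotonin receptor gene, had 11.1, 7.65, 8.82 and 14.2 CPM in the VC and 21.4, 23.1, 17.7 and 18.5 CPM in the miR-21-KD tumours. Its groups were apart (log2 fold change 0.95 ± 0.20 SE, adjusted p = 0.0105). Adra2a, the gene of a Gi-coupled adrenergic receptor of fat cells and platelets, had 7.37, 4.7, 5.43 and 5.86 CPM in the VC and 12.8, 9.27, 9.16 and 11.6 CPM in the miR-21-KD tumours. All miR-21-KD tumours lay above VC 1, the highest of the VC group (log2 fold change 0.87 ± 0.19 SE, adjusted p = 0.012). Hrh1, the Gq-coupled histamine receptor gene, had 3.54, 3.75, 3.39 and 0.977 CPM in the VC and 4.44, 4.71, 6.24 and 4.61 CPM in the miR-21-KD tumours. The groups did not overlap, yet the difference did not pass the threshold (log2 fold change 0.78 ± 0.37 SE, adjusted p = 0.124).

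Adrb1, a Gs-coupled adrenergic receptor gene, had 1.03, 0, 0.236 and 0.244 CPM in the VC and 1.86, 0.55, 2.59 and 5.63 CPM in the miR-21-KD tumours. VC 2 was at 0 and VC 3 and VC 4 at 3 counts each, so its fold change rests on very few reads (log2 fold change 2.75 ± 0.90 SE, adjusted p = 0.0396). It did not pass without VC 2, VC 3, VC 4, miR-21-KD 1, miR-21-KD 3 or miR-21-KD 4 (adjusted p between 0.0612 and 0.115), nor with no filter on low counts (adjusted p = 0.0557). Hrh2, the Gs-coupled histamine receptor gene, had 1.04 to 2.77 CPM in VC and 1.62 to 2.26 CPM in miR-21-KD tumours and did not pass (log2 fold change 0.04, adjusted p = 0.935). Among the genes of amine supply, Hdc, which makes histamine and is a mast cell and basophil gene, was higher (log2 fold change 0.96, adjusted p = 0.0439). Maoa, which degrades serotonin and catecholamines, was lower (log2 fold change -0.67, adjusted p = 0.00756), and Slc6a2, the noradrenaline transporter gene, was lower with the largest change among the ligand genes (log2 fold change -4.19, adjusted p = 0.00679).

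The receptors of peptide hormones varied widely between tumours. Agtr1a, which encodes the angiotensin II receptor of smooth muscle and fibroblasts, had 10.7, 1.75, 3.39 and 1.79 CPM in the VC and 17.2, 8.72, 37.4 and 50.9 CPM in the miR-21-KD tumours. It was higher in miR-21-KD tumours (log2 fold change 2.69 ± 0.73 SE, adjusted p = 0.0215), although VC 1 exceeded miR-21-KD 2. It did not pass without VC 2, VC 3, miR-21-KD 3 or miR-21-KD 4 (adjusted p between 0.0519 and 0.0628). Oxtr, the oxytocin receptor gene, which is known in myoepithelial cells and smooth muscle, had 13, 2.71, 5.67 and 2.28 CPM in the VC and 25.3, 5.03, 21.4 and 24.8 CPM in the miR-21-KD tumours. Both groups were spread and the difference did not pass (log2 fold change 1.69 ± 0.64 SE, adjusted p = 0.0646). With a block for the replicate number it did (adjusted p = 0.0222), as it did with DESeq2 (adjusted p = 0.0176) and without VC 1 (adjusted p = 0.0208) or miR-21-KD 2 (adjusted p = 0.0199). Ednra, the endothelin A receptor gene, had 88.3, 93.3, 75.4 and 41.2 CPM in the VC and 49.7, 47, 62.4 and 50.2 CPM in the miR-21-KD tumours. VC 4 lay below all miR-21-KD tumours and the other VC tumours above them (log2 fold change -0.51 ± 0.23 SE, adjusted p = 0.109), and without VC 4 the gene was called lower (adjusted p = 0.00921). Ednrb, the endothelin B receptor gene, had 33.3 to 88.7 CPM in VC and 65.7 to 136 CPM in miR-21-KD tumours (log2 fold change 0.60, adjusted p = 0.216). Ace, which makes angiotensin II, was lower with an overlap (log2 fold change -1.05, adjusted p = 0.0418).

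Of the protease-activated receptors, which thrombin and other proteases switch on by cleavage, 2 were lower, beside 19.5% of all tested genes, and 2 did not pass. F2r (Entrez 14062, chr13:95601803-95618487), the gene of the thrombin receptor PAR1, had 232, 218, 208 and 176 CPM in the VC and 100.4, 183, 148 and 114 CPM in the miR-21-KD tumours. It was lower in miR-21-KD tumours, with miR-21-KD 2 above VC 4 (log2 fold change -0.61 ± 0.19 SE, adjusted p = 0.0322). F2rl3, the gene of PAR4, had 2.58, 3.75, 2.76 and 3.26 CPM in the VC and 2.02, 1.88, 1.95 and 1.41 CPM in the miR-21-KD tumours. No miR-21-KD value reached the VC range (log2 fold change -0.76 ± 0.22 SE, adjusted p = 0.0275). F2rl2, the gene of PAR3, had 7.15, 3.35, 3.15 and 5.62 CPM in the VC and 8.07, 7.46, 8.83 and 7.42 CPM in the miR-21-KD tumours. Its groups did not overlap in the other direction, and the difference did not pass the threshold (log2 fold change 0.72 ± 0.28 SE, adjusted p = 0.0649). It passed without VC 1 (adjusted p = 0.0214) or with DESeq2 (adjusted p = 0.0361) or limma-voom (adjusted p = 0.0382). F2rl1, the gene of PAR2, had 21.3 to 41.8 CPM in VC and 16.1 to 42.1 CPM in miR-21-KD tumours (log2 fold change -0.37, adjusted p = 0.378). F2r was not called without VC 1, VC 2, VC 3, miR-21-KD 1, miR-21-KD 3 or miR-21-KD 4 (adjusted p between 0.0579 and 0.087). F2rl3 was not called without VC 2, VC 3, VC 4, miR-21-KD 3 or miR-21-KD 4 (adjusted p between 0.0518 and 0.0802). Genes of the coagulation start, F3 for tissue factor (log2 fold change 1.45, adjusted p = 0.00713), F7 (log2 fold change 1.48, adjusted p = 0.0132) and F10 (log2 fold change 1.17, adjusted p = 0.00674), were higher, and Serpine2, an inhibitor of thrombin, was lower (log2 fold change -2.06, adjusted p = 0.00671). Platelet markers gave 2 of 6 higher, Pf4 and Itgb3, with summed levels of 204 to 272 CPM in VC and 348 to 687 CPM in miR-21-KD tumours, and the part of platelets was not tested.

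Of the receptors of formyl peptides and chemerin, Cmklr1, the chemerin receptor gene of macrophages and dendritic cells, had 37.7, 44.6, 36.7 and 61.1 CPM in the VC and 99.4, 58.1, 59.7 and 71.5 CPM in the miR-21-KD tumours. It was higher in miR-21-KD tumours (log2 fold change 0.68 ± 0.22 SE, adjusted p = 0.038), with VC 4 above miR-21-KD 2 and miR-21-KD 3. It did not pass without VC 1, VC 2, VC 3, miR-21-KD 1 or miR-21-KD 4 (adjusted p between 0.0786 and 0.103). Fpr1, a formyl peptide receptor gene of neutrophils, had 5.6, 2.47, 2.28 and 5.54 CPM in the VC and 3.55, 1.57, 2.19 and 3.36 CPM in the miR-21-KD tumours. The groups overlapped (log2 fold change -0.57 ± 0.40 SE, adjusted p = 0.272). Fpr2, its paralogue, had 10.5, 5.18, 5.35 and 20.2 CPM in the VC and 13.8, 13.1, 8.83 and 14.5 CPM in the miR-21-KD tumours. VC 4 was the highest of all tumours and the difference did not pass (log2 fold change 0.28 ± 0.43 SE, adjusted p = 0.615). Of 8 neutrophil markers 1, Ltf, was higher, and their summed level was 312 to 874 CPM in VC and 416 to 926 CPM in miR-21-KD tumours, with an overlap.

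Among the 8 receptors of other lipids, metabolites and protons 5 were higher, beside 19.6% of all tested genes. Gpr132 (Entrez 56696, chr12:112850873-112860952), a receptor of oxidised fatty acids and lactate on macrophages and lymphocytes, had 19.2, 10.8, 14.6 and 23.8 CPM in the VC and 59.8, 38.7, 36.7 and 51.8 CPM in the miR-21-KD tumours. The groups did not overlap (log2 fold change 1.45 ± 0.26 SE, adjusted p = 0.0071). Hcar2 (Entrez 80885, chr5:123863570-123865499), which encodes the receptor of niacin and β-hydroxybutyrate in fat cells and myeloid cells, had 64.9, 19.5, 36.5 and 45.9 CPM in the VC and 146, 97.9, 112 and 109 CPM in the miR-21-KD tumours. Each miR-21-KD tumour was above VC 1, the highest of the VC tumours (log2 fold change 1.48 ± 0.32 SE, adjusted p = 0.011). Ffar2, the receptor of short-chain fatty acids on leukocytes and fat cells, had 7.22, 1.99, 2.36 and 7.74 CPM in the VC and 14.2, 11, 15 and 16.3 CPM in the miR-21-KD tumours. VC 1 and VC 4 were several times as high as the other VC tumours and below all miR-21-KD tumours (log2 fold change 1.54 ± 0.44 SE, adjusted p = 0.0248). The gene did not pass without VC 3, miR-21-KD 1, miR-21-KD 3 or miR-21-KD 4 (adjusted p between 0.0514 and 0.0639). Adipocyte markers were at 104 to 413 CPM in VC and 536 to 1409 CPM in miR-21-KD tumours, and their part in the values of Hcar2 and Ffar2 was not tested.

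Gpr34, a lysophosphatidylserine receptor of macrophages and microglia, had 9.21 to 17.3 CPM in VC and 14 to 29.6 CPM in miR-21-KD tumours and was higher (log2 fold change 0.85 ± 0.26 SE, adjusted p = 0.0328). Gpr183, the oxysterol receptor EBI2, had 14 to 24 CPM in VC and 23.9 to 28.2 CPM in miR-21-KD tumours and was higher (log2 fold change 0.50 ± 0.16 SE, adjusted p = 0.0355). Gpr34 did not pass without VC 1, VC 2, VC 3, miR-21-KD 1, miR-21-KD 3 or miR-21-KD 4 (adjusted p between 0.0672 and 0.0885). Gpr183 did not pass without VC 2, VC 3, VC 4, miR-21-KD 1, miR-21-KD 3 or miR-21-KD 4 (adjusted p between 0.0591 and 0.0844), nor with no filter on low counts (adjusted p = 0.0516). Cnr2, the cannabinoid receptor gene of leukocytes, had 7.8 to 18.6 CPM in VC and 16.1 to 25.7 CPM in miR-21-KD tumours and stood at the threshold (log2 fold change 0.80, adjusted p = 0.0523). It passed with a block for the replicate number (adjusted p = 0.0196), with DESeq2 (adjusted p = 0.0212), limma-voom (adjusted p = 0.0312), upper-quartile scaling (adjusted p = 0.0498) or the 10-count filter (adjusted p = 0.0452), and without VC 4 (adjusted p = 0.00976) or without miR-21-KD 2 (adjusted p = 0.0449). Gpr18, a receptor of lipid amides on lymphocytes, had 1.12 to 12.6 CPM in VC and 5.11 to 10.4 CPM in miR-21-KD tumours (log2 fold change 0.57, adjusted p = 0.466). Gpr65, a proton sensor of leukocytes that couples to Gs, had 21.9 to 49.3 CPM in VC and 36.4 to 61.5 CPM in miR-21-KD tumours (log2 fold change 0.50, adjusted p = 0.188). In both of these VC 4 was the highest VC tumour and miR-21-KD 1 the highest miR-21-KD tumour, and without VC 4 Gpr18 (adjusted p = 0.0434) and Gpr65 (adjusted p = 0.0297) passed. The genes that make the ligand of Gpr183, Ch25h (log2 fold change 1.80, adjusted p = 0.00598) and Cyp7b1 (log2 fold change 1.51, adjusted p = 0.021), and Hsd3b7, which breaks it down (log2 fold change 0.50, adjusted p = 0.0134), were higher in miR-21-KD tumours.

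**Figure D4:**
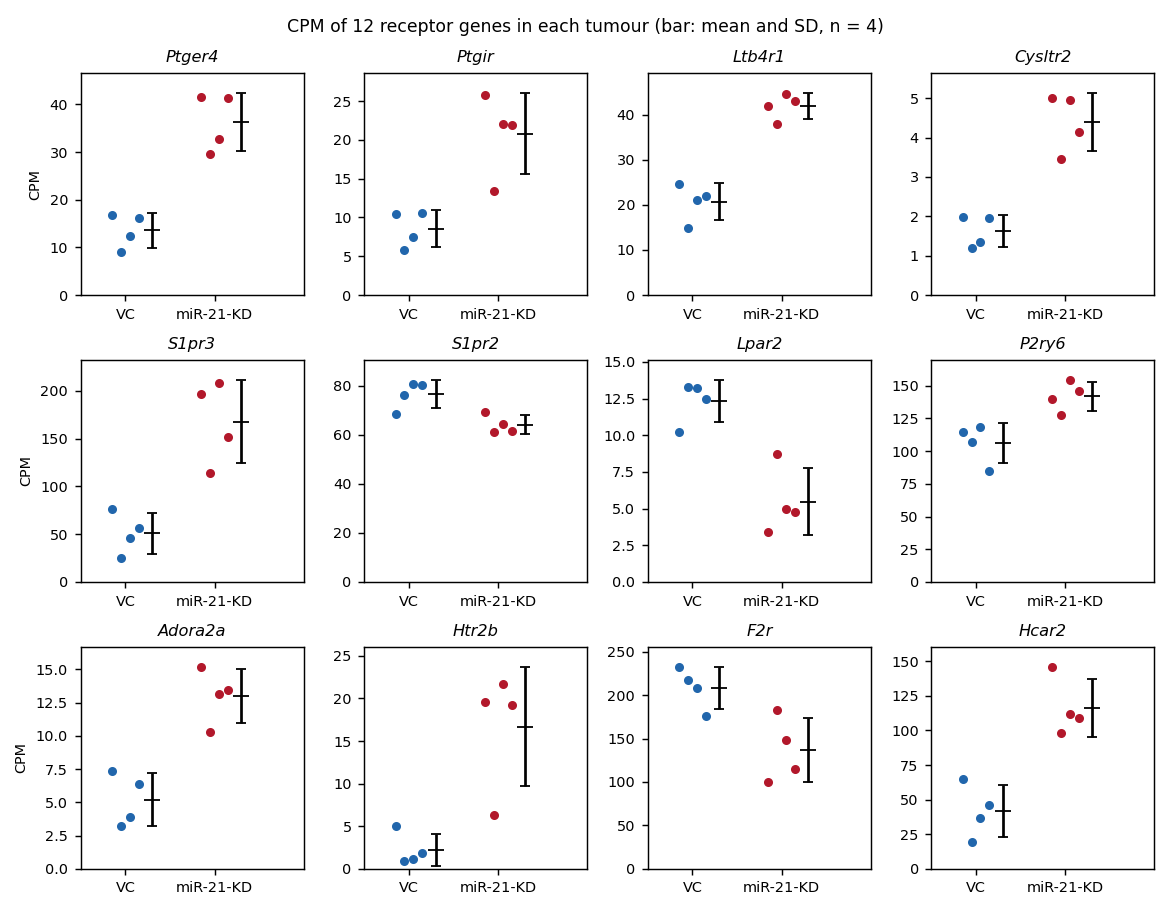
CPM of 12 receptors in each of the 4 VC (blue) and 4 miR-21-KD (red) tumours, with mean and SD beside each group. The groups are apart for all except S1pr2 and F2r, Lpar2 is lower in miR-21-KD tumours, and in Htr2b a single miR-21-KD tumour, miR-21-KD 2, lies near the VC tumours.

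The annotation used for counting is not given, and the lengths used here are those of all merged exons. Levels can therefore be compared only roughly between receptors per kilobase of exon. On this scale F2r had 62.4 CPM per kb in VC and 40.9 CPM per kb in miR-21-KD tumours, P2ry6 54.6 CPM per kb in VC and 72.9 CPM per kb in miR-21-KD tumours and Hcar2 21.6 CPM per kb in VC and 60.2 CPM per kb in miR-21-KD tumours. These were the highest 3 of the list in both groups, led by F2r in VC and by P2ry6 in miR-21-KD tumours. Next came Ednra in the VC tumours, with 20.6 CPM per kb in VC and 14.4 CPM per kb in miR-21-KD tumours, and S1pr3 in the miR-21-KD tumours, with the values given above. The receptors with the largest fold changes were low on this scale in VC tumours, with 1.07 CPM per kb in VC and 8.0 CPM per kb in miR-21-KD tumours for Htr2b, 2.0 CPM per kb in VC and 13 CPM per kb in miR-21-KD tumours for Agtr1a and 0.128 CPM per kb in VC and 0.90 CPM per kb in miR-21-KD tumours for Adrb1.

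The 10 receptors of the list that couple to Gs and raise cyclic AMP were grouped after their values had been seen. Of the 9 tested, Ptger2, Ptger4, Ptgir, Adora2a, Adora2b, Adrb1 and Htr7 were higher, which is 7, beside the 19.6% of all genes, while Hrh2 and Gpr65 did not pass.

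Further receptors of the same families, 57 genes, were mostly not expressed at a testable level, and 20 were tested. Of these 13 were higher and 1 was lower in miR-21-KD tumours, beside the 19.6% and 19.5% of all genes. A gene could pass the filter through its counts in a single group, so genes low in VC tumours could enter by their rise. With 10 counts or more required in all tumours, 13 were tested, of which 7 were higher and 1 lower, beside 20.9% of all genes higher. Gpr35, an orphan receptor of gut and myeloid cells, had 86.1, 59.9, 62.1 and 72.2 CPM in the VC and 132, 108, 129.8 and 109 CPM in the miR-21-KD tumours and the smallest p of them, with no overlap (log2 fold change 0.77 ± 0.13 SE, adjusted p = 0.00679). Adrb3, the adrenergic receptor gene of fat cells, had 2.95, 0.399, 0.63 and 1.06 CPM in the VC and 10.8, 4.16, 8.11 and 17 CPM in the miR-21-KD tumours. It was the further receptor with the largest rise (log2 fold change 2.97 ± 0.64 SE, adjusted p = 0.0113). Ccrl2, a chemerin-binding receptor that does not signal, had 17.6, 10.8, 11.7 and 17.9 CPM in the VC and 42, 29.1, 23.2 and 26.3 CPM in the miR-21-KD tumours. The groups were apart (log2 fold change 1.05 ± 0.24 SE, adjusted p = 0.0128). The lower one was Gper1, a membrane oestrogen receptor gene, with 29.7, 37.9, 37.6 and 19.5 CPM in the VC and 2.66, 14.1, 10.9 and 8.75 CPM in the miR-21-KD tumours (log2 fold change -1.77 ± 0.43 SE, adjusted p = 0.0158). Without VC 3 the number of these receptors past the threshold was 9, beside 20.1% of all genes, and without miR-21-KD 1 it was 8, beside 26.5%.

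Of 117 genes that make, carry or break down the ligands, 104 were tested, of which 44 (42.3%) were higher and 14 (13.5%) lower, beside the 19.6% and 19.5% of all genes. Besides Ptges, Slc29a1 and Alpl, the gene with the smallest p was Lipe, the hormone-sensitive lipase of fat cells, with 30.1, 19.7, 22.5 and 27.4 CPM in the VC and 60.7, 50.5, 64 and 102 CPM in the miR-21-KD tumours and no overlap (log2 fold change 1.48 ± 0.23 SE, adjusted p = 0.00585). The number past the threshold fell to 36 without VC 3, beside 20.1% of all genes. The median log2 fold change of the tested ligand genes was 0.56.

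Of 82 genes that carry the signal inside the cell, 77 were tested, and 26 (33.8%) were higher and 14 (18.2%) lower, with a median log2 fold change of 0.18. The lower share was close to the 19.5% of all genes, of which 19.6% were higher. Prkacb, a catalytic subunit of protein kinase A, had 389, 502, 385 and 298 CPM in the VC and 186, 220.5, 196 and 168 CPM in the miR-21-KD tumours. The highest miR-21-KD value was below the lowest VC value (log2 fold change -1.03 ± 0.16 SE, adjusted p = 0.00571). Crem, a cyclic AMP-responsive transcription factor gene, had 23.9, 15.5, 19.4 and 21.7 CPM in the VC and 41.2, 33.3, 35.6 and 35.5 CPM in the miR-21-KD tumours. It was higher without overlap (log2 fold change 0.85 ± 0.14 SE, adjusted p = 0.00641). Pik3r6 is a regulatory subunit of the PI3-kinase that GPCRs activate in leukocytes, and it had 8.47, 8.61, 7.64 and 13.2 CPM in the VC and 32.4, 18.5, 21.2 and 25.7 CPM in the miR-21-KD tumours, a rise with no overlap (log2 fold change 1.37 ± 0.23 SE, adjusted p = 0.00664). Pde3b, a phosphodiesterase of fat cells and leukocytes that breaks down cyclic AMP, had 22.3, 16.3, 13.3 and 27.8 CPM in the VC and 74.5, 38.5, 59.7 and 67 CPM in the miR-21-KD tumours and was higher as well (log2 fold change 1.59 ± 0.27 SE, adjusted p = 0.00671).

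Further signal genes, named after their values were seen, differed in both directions. Gnas, which encodes the Gs α subunit, was lower (log2 fold change -0.50, adjusted p = 0.0102), as were Prkaca (log2 fold change -0.27, adjusted p = 0.0294), the regulatory subunit gene Prkar1a (log2 fold change -0.29, adjusted p = 0.0238) and the cyclic AMP-activated exchange factor genes Rapgef3 (log2 fold change -1.42, adjusted p = 0.0154) and Rapgef4 (log2 fold change -0.81, adjusted p = 0.0279). The adenylyl cyclase genes Adcy2 (log2 fold change 1.83, adjusted p = 0.0181), Adcy4 (log2 fold change 0.83, adjusted p = 0.0215), Adcy5 (log2 fold change 1.94, adjusted p = 0.00777) and Adcy9 (log2 fold change 0.71, adjusted p = 0.0491) were higher. Of the other α subunits Gna15 of haematopoietic cells was higher (log2 fold change 1.60, adjusted p = 0.00672), as was Gnai1 (log2 fold change 1.55, adjusted p = 0.00815), and Gnao1 (log2 fold change -2.09, adjusted p = 0.0102) and Gna11 (log2 fold change -0.52, adjusted p = 0.0184) were lower. Without VC 2 the number of signal genes past the threshold was 19, beside 22.5% of all genes, and without VC 3 it was 18, beside 20.1%. Without miR-21-KD 1 it was 25, beside 26.5% of all genes, and without miR-21-KD 3 or miR-21-KD 4 it was 26, beside 25.8% and 23.3%.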

How the data were processed

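For each of the 8 tumours the authors deposited unnormalized read counts, 1 row for each Entrez gene identifier. Per the labels' processing notes Subread, featureCounts, limma, edgeR and mm10 were used, with versions, annotation and strand setting not given in the sources used here. Symbols and positions came from RefSeq and GENCODE M21 tables of GRCm38 and matched 25275 of the 27179 identifiers. The columns of a partial proteomics table were not used here.

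In R 4.3.3, genes were kept by filterByExpr (minimum count 10, minimum total 15), scaled by TMM and tested with the robust quasi-likelihood test of edgeR 4.0.16 between the 4 VC and 4 miR-21-KD tumours, with Benjamini-Hochberg adjustment over all 14382 genes and a threshold of 0.05. Standard errors came from the estimate and the F statistic. The test was checked on simulated counts. No pair of replicates agreed within sampling noise (chi-square per degree of freedom at least 12.6). CPM per kb divides the mean CPM by the length of all merged exons.

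The members, gene lists and alternatives were chosen with earlier results of these data known. Values in every tumour are given for the 3 members of each class with the smallest p and for members without overlap between groups, the others by range, and the 4 genes of smallest p are named from each further list, with genes of ligand supply added. Adrb1, other receptors such as Gper1 and further signal genes were added after their values were seen. Alternatives were DESeq2 1.42.0, library-size or upper-quartile scaling, no filter, limma-voom (limma 3.58.1), a stricter filter (10 counts or more in all tumours), a test for changes above 1.5-fold, a block for the replicate number and each tumour left out. After removal of group means, same-numbered tumours correlated by 0.272, 0.421, 0.175 and 0.376, against a mean of -0.10 for other combinations. This hint of pairing came from the data and not from the labels. The main test therefore did not pair the tumours, and the block was run as an alternative only.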

Additional observations from a re-analysis of the deposited data

Results flagged for a closer look

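In 4 of 112 groups of tumours 1 tumour stood far from the other 3 by Dixon's criterion on the gap to the nearest tumour over the range, where chance gives about 1 in 20. Ptgfr was 2.14 CPM in VC 1 against 0.551 to 0.652 CPM in the other VC tumours. Hrh1 was 0.977 CPM in VC 4 against 3.39 to 3.75 CPM in the others, and 6.24 CPM in miR-21-KD 3 against 4.44 to 4.71 CPM. Htr2b was 6.28 CPM in miR-21-KD 2 against 19.2 to 21.6 CPM in the other miR-21-KD tumours, and its call held without that tumour.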

How the results depend on the processing

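Over 890 comparisons of single receptors with an alternative, 736 kept direction and side of the threshold, 121 no longer passed, 24 passed where they had not, and 9 changed sign, 0 of them for a called receptor. Ptger4, Cysltr2, S1pr3, Htr2b and Gpr132 passed under every alternative run, and 17 of the 36 called receptors did so when the test for changes above 1.5-fold is left aside. That test left 5 receptors higher and 0 lower, 1 further receptor, 13 ligand genes and 4 signal genes, beside 3.77% of all genes past it and 2.32% higher. Requiring 10 counts or more in all tumours left 8 further receptors, of 13 tested. Leaving out 1 tumour gave 18 to 35 receptors higher, 1 to 3 lower, 8 to 17 further receptors, 36 to 67 ligand genes and 18 to 44 signal genes past the threshold, with 20.1% to 46.8% of all genes. Sign changes were confined to receptors near 0. For Lpar6 the log2 fold change was 0.026 with upper-quartile scaling, 0.034 with the 10-count filter and -0.15 to 0.13 without 1 tumour. Without 1 tumour it was -0.29 to 0.14 for P2ry13, which turned positive without VC 4, and -0.16 to 0.29 for Hrh2, which turned negative without VC 2, VC 3 or miR-21-KD 1. The cause of these changes was not tested. With the replicate block 35 receptors were higher and 3 lower, beside 45.1% of all genes past the threshold and 23.0% higher, and apart from Ptger3, Tbxa2r, S1pr2, P2ry12, Oxtr and Cnr2 it changed no other call. At 3 counts or fewer, the levels of Ptgdr in all VC tumours and miR-21-KD 4, of Adrb1 in VC 2, VC 3 and VC 4 and of Tbxa2r in VC 2 and VC 3 are not resolved at this depth.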
